A study of Mus musculus with 2 samples.

Results

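The mouse genes *Sgcd*, *Pcsk1n*, *Crybg3*, *Gnai1*, *Zswim5*, *Lmo1* and *Nkain3*, 7 of the 32285 genes measured, were described across the cells of the postnatal testis. They were selected on their UMI counts in these libraries, as genes near the top of those higher in germ cells with RNA for *Kit* and *Stra8* than in germ cells with RNA for *Gfra1* and *Ret*, and as genes little studied in spermatogonia. Their values in that comparison are therefore a description and not a finding. Single-cell RNA sequencing (scRNA-seq) was performed on whole testes at postnatal day (PD) 7, with 1 library from 1 control mouse and 1 library from 1 *Brca1* vKO mouse. The *Brca1* vKO genotype was *Brca1* f/- *Vasa-Cre*, so that 1 *Brca1* allele was deleted in the whole body and the floxed allele was deleted by a Cre that acts in germ cells from the embryonic gonocyte stage. Controls were littermates, and their alleles are not given in the sources used here. With 1 mouse and 1 library per genotype no difference was tested, and every interval below is a 95% interval that covers counting error only.

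Spermatogonia are the mitotic germ cells of the testis. Those that express the GDNF receptor parts GFRA1 and RET include the stem cells, whereas retinoic acid drives later cells to express STRA8 and the receptor tyrosine kinase KIT and to enter differentiation. *Kit* and *Stra8* are the usual labels of this step, and the 7 genes belong to families that are better known from muscle, nerve, endocrine and blood cells.

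Captured RNA molecules are tagged with a cell barcode and a random tag (the unique molecular identifier, UMI), and UMIs per gene are counted. There were 120568700 UMIs over 5812 barcodes in the control library and 165062097 over 9456 in the *Brca1* vKO library, from which more cells had been loaded. After filtering, 5077 control and 8712 *Brca1* vKO cells were kept. Of the barcodes, 21 occurred in both tables, among them 16 kept cells and 0 germ cells. A cell counted as a germ cell when *Ddx4* and *Dazl* made up 3 or more of every 10000 of its UMIs and it held 10000 or more UMIs, which gave 716 control cells (14.1%) and 228 *Brca1* vKO cells (2.62%). KIT-type cells had at least 1 UMI of *Kit* and *Stra8* per 10000 and more of these than of *Gfra1* and *Ret*, and GFRA1-type cells had the reverse. There were 249 KIT-type cells and 310 GFRA1-type cells in the control library, with medians of 49093 and 45047 UMIs per cell. The *Brca1* vKO library had 15 KIT-type cells, or 6.58% of its germ cells (3.73 to 10.6), and 196 GFRA1-type cells. A further 156 control and 15 *Brca1* vKO germ cells were low for both pairs of genes, and 1 and 2 germ cells fell in none of these groups.

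The sorting of cells by *Kit*, *Stra8*, *Gfra1* and *Ret* fixes the levels of these genes, which are given for reference. *Kit* RNA, in UMIs per 1000000 UMIs of the cell group (CPM), was 144 in control KIT-type and 8.55 in control GFRA1-type cells, and *Gfra1* was 19.01 and 346. *Brca1* RNA was 71.3 CPM in control germ cells (68.5 to 74.2) and 44.2 in *Brca1* vKO germ cells (40.0 to 48.7). *Brca1* in GFRA1-type cells was 72.7 and 43.0 CPM. In KIT-type cells it was 81.0 CPM in the control library (76.1 to 86.1) and 72.1 in the *Brca1* vKO library (52.2 to 97.1), intervals that overlap. Counts per gene cannot tell RNA of the deleted allele from RNA of an intact one, so for the 15 *Brca1* vKO KIT-type cells the level of *Brca1* gives no check of the deletion.

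*Sgcd* encodes delta-sarcoglycan, a membrane protein of the dystrophin complex of muscle. The gene (ENSMUSG00000020354) spans 1092.7 kb of chromosome 11, from 46896253 to 47988969 on the minus strand of GRCm38. In control KIT-type cells it had 921 UMIs, or 73.5 CPM (68.9 to 78.5), against 115 UMIs or 7.81 CPM (6.44 to 9.37) in GFRA1-type cells. The ratio was 9.42 (7.75 to 11.5). Of the KIT-type cells 56.6% held a UMI of *Sgcd*, against 14.5% of GFRA1-type cells.

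*Pcsk1n* encodes proSAAS, a secreted precursor that inhibits prohormone convertase 1. It is the shortest of the 7 genes (ENSMUSG00000039278, 4.59 kb, chromosome X from 7919822 to 7924410, plus strand). It had 515 UMIs or 41.1 CPM (37.7 to 44.8) in control KIT-type cells and 13 UMIs or 0.882 CPM (0.470 to 1.51) in GFRA1-type cells, a ratio of 46.6 (27.0 to 88.1). A UMI was present in 64.7% of KIT-type and 3.87% of GFRA1-type cells. Of the 7 genes it had the largest ratio between the cell groups.

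*Crybg3* encodes a protein with beta-gamma crystallin domains and spans 110.2 kb of chromosome 16 (ENSMUSG00000022723, 59490775 to 59600979, minus strand). Its level was 80.9 CPM (76.0 to 86.0; 1013 UMIs) in KIT-type and 12.1 CPM (10.4 to 14.0; 178 UMIs) in GFRA1-type cells, a ratio of 6.70 (5.70 to 7.90). *Gnai1* encodes an inhibitory G protein alpha subunit, which passes signals from receptors to adenylyl cyclase (ENSMUSG00000057614, chromosome 5 from 18265135 to 18360355, minus strand). Its level was 73.9 CPM (69.3 to 78.9; 926 UMIs) against 12.5 CPM (10.8 to 14.4; 184 UMIs), a ratio of 5.92 (5.05 to 6.97). Of the GFRA1-type cells 35.8% held a UMI of *Crybg3* and 36.1% of *Gnai1*, against 15.1% and 31.4% of Sertoli-like somatic cells at less depth (median 17777 UMIs per cell), so these shares are not read as expression.

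*Zswim5* encodes a SWIM-type zinc finger protein (ENSMUSG00000033948, chromosome 4 from 116877376 to 116989264, plus strand). It was found at 160 CPM (153 to 168; 2008 UMIs) in KIT-type and 43.9 CPM (40.6 to 47.4; 647 UMIs) in GFRA1-type cells. This ratio of 3.65 (3.34 to 3.996) was the smallest of the 7, and 62.9% of GFRA1-type cells held a *Zswim5* UMI. *Lmo1* encodes a LIM-only protein, a partner of transcription factors that is known as an oncogene of T cell leukaemia (ENSMUSG00000036111, chromosome 7 from 109138572 to 109175207, minus strand). It was at 73.5 CPM (68.9 to 78.5; 921 UMIs) against 8.42 CPM (7.001 to 10.04; 124 UMIs), a ratio of 8.74 (7.24 to 10.6). *Nkain3* encodes a membrane protein of a family that binds the beta subunit of the sodium pump, and spans 660 kb of chromosome 4 (ENSMUSG00000055761, 20118874 to 20778866, minus strand). It was at 41.2 CPM (37.7 to 44.9; 516 UMIs) against 6.65 CPM (5.40 to 8.11; 98 UMIs), a ratio of 6.19 (4.98 to 7.77). *Nkain3* was found in the smallest share of KIT-type cells, 41.4%.

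On the log2 scale with 10 CPM added to each level, the 7 genes were 1.62 to 2.23 higher in control KIT-type than in GFRA1-type cells, with a median of 2.04 against 0.02 over the 18014 genes compared. They ranked from 3 (*Pcsk1n*) to 20 (*Nkain3*). All 7 were past a 2-fold difference on this scale, as were 0.688% of all genes, which is what the selection asked for. Because 10 CPM are added, the log2 value understates the difference of a gene that is low in one group, and *Pcsk1n* and *Sgcd* had nearly the same log2 difference (2.23) with ratios of 46.6 and 9.42. At the germ cell threshold, the 11 control cells just inside it (3 to 4 UMIs of *Ddx4* and *Dazl* per 10000) held 19 UMIs of *Gnai1* and 0 to 4 of each other gene, and the 9 just outside (2 to 3 per 10000) held 10 of *Gnai1* and 0 to 3 of each other gene.

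**Figure D1:**
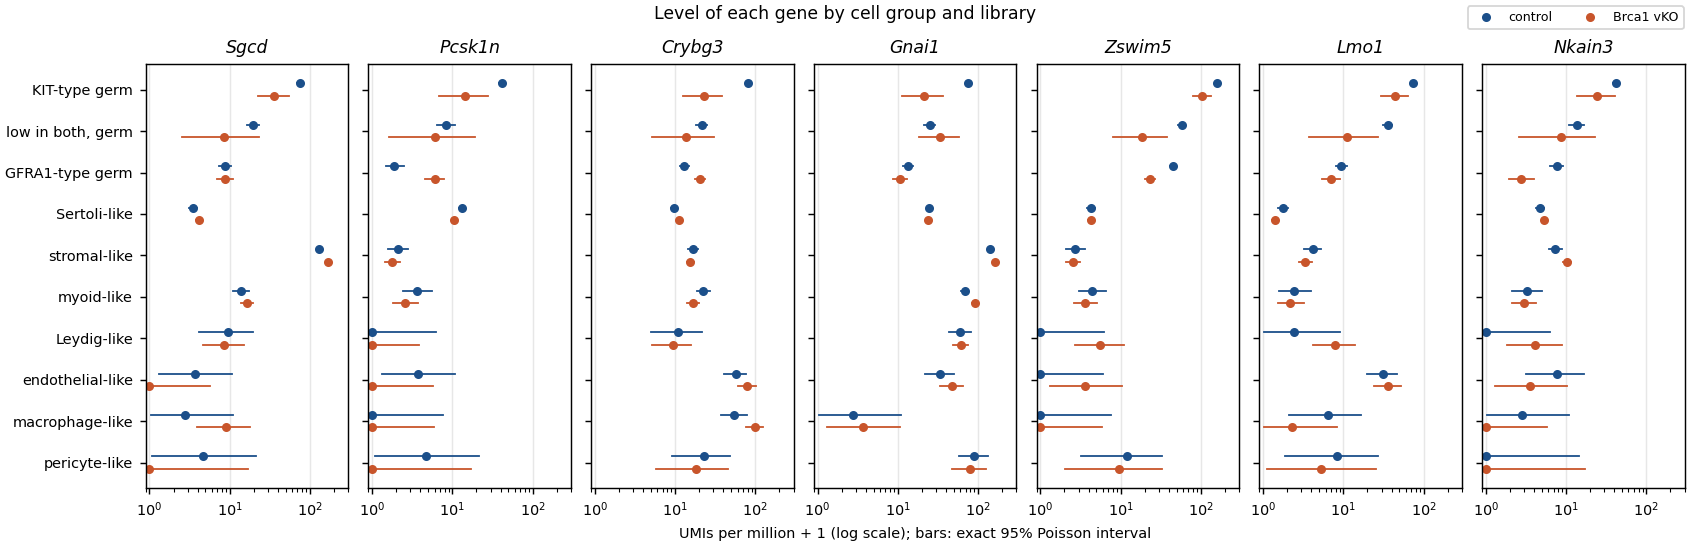
Each panel plots the level of a gene, as CPM plus 1 on a log axis, in 3 groups of germ cells and 7 classes of somatic cells, for the control (blue) and *Brca1* vKO (orange) library. Points are sums over the cells of a group and bars are exact 95% Poisson intervals. In the control library the KIT-type germ cells stand highest for *Pcsk1n*, *Crybg3*, *Zswim5*, *Lmo1* and *Nkain3*, and the stromal-like cells for *Sgcd* (129 CPM) and *Gnai1* (141 CPM).

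RefSeq promoter entries were matched for 6 of the 7 genes, and none for *Nkain3*. The 250 bases before the annotated start are shown for *Sgcd*, *Pcsk1n*, *Crybg3* and *Lmo1*, the genes with the largest ratios between KIT-type and GFRA1-type cells; *Kit* and *Stra8* rise with retinoic acid, so its receptor site was searched for in them. They are in GRCm38.p6, 5′ to 3′ on the strand of the gene, with E-boxes in capitals (CANNTG, which reads the same on both strands, the site of basic helix-loop-helix factors).
*Sgcd*, chr11:47379326-47379575, minus strand: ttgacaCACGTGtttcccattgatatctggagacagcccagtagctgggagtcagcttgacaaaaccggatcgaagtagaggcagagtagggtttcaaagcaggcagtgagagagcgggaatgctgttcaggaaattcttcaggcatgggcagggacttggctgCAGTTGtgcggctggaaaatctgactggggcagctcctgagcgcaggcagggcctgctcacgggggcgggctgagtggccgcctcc
*Pcsk1n*, chrX:7919572-7919821, plus strand: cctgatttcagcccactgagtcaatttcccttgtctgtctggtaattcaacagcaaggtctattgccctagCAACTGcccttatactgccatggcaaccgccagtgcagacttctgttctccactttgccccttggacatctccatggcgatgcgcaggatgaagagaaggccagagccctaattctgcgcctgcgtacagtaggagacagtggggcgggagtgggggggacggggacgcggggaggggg
*Crybg3*, chr16:59601048-59601297, minus strand: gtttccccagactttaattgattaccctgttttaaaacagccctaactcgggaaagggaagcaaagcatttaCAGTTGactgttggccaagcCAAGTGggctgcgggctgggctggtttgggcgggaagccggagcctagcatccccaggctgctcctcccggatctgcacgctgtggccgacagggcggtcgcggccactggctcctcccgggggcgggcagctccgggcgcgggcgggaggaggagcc
*Lmo1*, the first of its 2 entries, chr7:109175208-109175457, minus strand: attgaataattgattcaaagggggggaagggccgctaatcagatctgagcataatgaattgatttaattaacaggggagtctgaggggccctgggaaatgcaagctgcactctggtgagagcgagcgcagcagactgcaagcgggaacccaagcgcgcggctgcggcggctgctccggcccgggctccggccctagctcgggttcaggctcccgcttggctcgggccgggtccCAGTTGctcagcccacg
The *Sgcd* window lies inside the gene as given above, since a longer annotated transcript starts further upstream. E-boxes numbered 2 in *Sgcd* and *Crybg3*, 1 in *Pcsk1n*, *Lmo1* and *Gnai1* and 0 in *Zswim5*, and 66.2% of all 32851 upstream windows of the same length held at least 1. The hexamer bound by retinoic acid receptors (AGGTCA, or TGACCT on the other strand) was in 0 of these 6 windows and in 14.0% of all windows. These are matches of letters in a short window and say nothing about binding.

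The cells that express the 7 genes outside the germ line were examined next. Somatic cells were classed by 4 marker genes each and are called Sertoli-like (2237 cells in the control library), stromal-like (787), myoid-like (349), Leydig-like (29), pericyte-like (27), macrophage-like (22) and endothelial-like (17). A class is a range of a marker score, and 114 classed control cells lay within 0.05 of the limit. In the control library 5 of the 7 genes were higher in KIT-type germ cells than in each of these 7 classes, as were 32.0% of all genes.

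*Sgcd* and *Gnai1* were the exceptions. *Sgcd* was at 129 CPM in stromal-like cells, so that the KIT-type level was 0.572 of it (0.527 to 0.620), and at 2.50 CPM in Sertoli-like and 12.99 in myoid-like cells. *Gnai1* was at 141 CPM in stromal-like, 87.6 in pericyte-like and 66.8 in myoid-like cells, and the KIT-type level was 0.526 of the stromal-like one (0.485 to 0.569). KIT-type cells held 27.1% of all *Sgcd* UMIs and 17.1% of all *Gnai1* UMIs of the kept control cells.

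Stromal markers in the KIT-type cells were measured because of these levels. The 4 markers *Dlk1*, *Col3a1*, *Pdgfra* and *Tcf21* summed to 5257 CPM in stromal-like cells, 141 CPM in KIT-type cells and 63.2 CPM in GFRA1-type cells of the control library. *Sgcd* itself was at 129, 73.5 and 7.81 CPM in the same cells. Other markers also differed between KIT-type and GFRA1-type cells: Sertoli markers were at 249 and 166 CPM, myoid markers at 107 and 73.6, Leydig markers at 46.8 and 6.24, and red blood cell markers at 1195 and 311 CPM, with 1 KIT-type cell at 724403 CPM of the last. Endothelial markers were at 5.59 and 9.03 CPM and macrophage markers at 7.91 and 6.99. The part of these markers in the differences was not tested beyond the removal of cells. KIT-type cells with an *Sgcd* UMI had 166 CPM of stromal markers and those without had 90.8, and for *Gnai1* the order was the other way, 134 and 194 CPM. When germ cells with somatic marker levels above the 95th percentile of the control germ cells were removed, the log2 difference between KIT-type and GFRA1-type cells was 2.25 for *Sgcd* and 1.91 for *Gnai1*, against 2.23 and 1.90 with all cells.

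The other 5 genes had lower levels in somatic cells. *Zswim5* was at 10.9 CPM in pericyte-like cells and at 1.69 to 3.45 CPM in Sertoli-like, stromal-like and myoid-like cells, and its KIT-type level was 14.6 times the pericyte-like one (5.01 to 71.1). *Nkain3* was highest in endothelial-like (6.79 CPM) and stromal-like cells (6.38 CPM), and the KIT-type level was 6.07 times the former (2.58 to 18.8). *Pcsk1n* was at 12.1 CPM in Sertoli-like cells, 3.40 times lower than in KIT-type cells (3.03 to 3.83), and at most 3.65 CPM elsewhere.

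*Lmo1* and *Crybg3* had a somatic site in small classes. *Lmo1* was at 29.9 CPM in the 17 endothelial-like cells, 2.46 times lower than in KIT-type cells (1.62 to 3.95), and at 0.765 CPM in Sertoli-like cells. *Crybg3* was at 55.7 CPM in endothelial-like and 53.8 CPM in macrophage-like cells, and the KIT-type level was 1.45 times the endothelial-like one (1.06 to 2.04). KIT-type cells held 61.3% of the *Lmo1*, 60.6% of the *Zswim5*, 49.4% of the *Nkain3*, 43.1% of the *Crybg3* and 38.2% of the *Pcsk1n* UMIs of all kept control cells, and were 249 of 5077 cells. Their median depth was above that of all kept control cells (16917 UMIs), so the share of UMIs and the share of cells are not like measures. In the *Brca1* vKO library the same classes ranked first for *Sgcd* (stromal-like, 165 CPM), *Gnai1* (stromal-like, 162), *Pcsk1n* (Sertoli-like, 9.498), *Zswim5* (pericyte-like, 8.69) and *Lmo1* (endothelial-like, 34.9), whereas *Crybg3* was highest in macrophage-like cells (97.5 CPM) and *Nkain3* in stromal-like cells (9.23 CPM). There 4 of the 7 genes (*Pcsk1n*, *Zswim5*, *Lmo1* and *Nkain3*) were higher in KIT-type cells than in each of 8 classes, as were 25.3% of all genes, and for *Pcsk1n* and *Lmo1* the interval of the ratio to the leading class included 1 (1.41, 0.608 to 2.79, and 1.25, 0.700 to 2.22).

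*Kit* itself was not limited to germ cells, since Leydig and endothelial cells are known to express it. In the control library it was at 277.5 CPM in the 29 Leydig-like cells, above its level in KIT-type cells (144 CPM), and at 72.0 CPM in the endothelial-like cells. The Leydig-like cells had 0 UMIs of *Pcsk1n*, *Zswim5* and *Nkain3*, which allows up to 4.29 CPM, and 1.43 CPM of *Lmo1*, 8.58 of *Sgcd* and 10.01 of *Crybg3*. *Gnai1*, at 58.6 CPM (42.1 to 79.6), was the gene of the 7 with the highest level there. Levels of a few CPM, such as those of *Zswim5* in other somatic classes, could not be seen in so few cells.

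Co-detection with *Kit* was then measured cell by cell. To compare cells of equal depth, each germ cell was thinned to 10000 UMIs drawn at random, after which 186 of the 716 control germ cells held a *Kit* UMI and 530 did not. Each of the 7 genes was found in a larger share of the *Kit*-positive cells, as were 54.7% of all genes compared. *Kit* is a gene of the rule, so the difference is again a description.

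*Zswim5* was found in 72.0% of *Kit*-positive (65.0 to 78.4) and 32.3% of *Kit*-negative germ cells (28.3 to 36.4), and *Crybg3* in 54.8% (47.4 to 62.1) and 10.6% (8.08 to 13.5). *Lmo1* was found in 47.8% and 18.1%, *Gnai1* in 47.3% and 16.0%, *Sgcd* in 35.5% and 10.8%, *Pcsk1n* in 33.3% and 6.79%, and *Nkain3* in 25.8% and 5.47%. Without thinning, at a median of 44839.5 UMIs per germ cell, 320 cells were *Kit*-positive and the shares ran from 37.2% (*Nkain3*) to 84.1% (*Zswim5*), against 8.84% (*Pcsk1n*) to 59.1% (*Zswim5*) in the 396 *Kit*-negative cells.

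Sertoli-like cells served as a measure of RNA found in cells outside the germ line. Of the 1912 control Sertoli-like cells with at least 10000 UMIs (median 19079.5, thinned in the same way, 325 shallower cells left out), 0.628% held an *Lmo1* UMI, 1.36% *Sgcd*, 2.82% *Nkain3*, 2.88% *Zswim5*, 6.75% *Crybg3*, 10.2% *Pcsk1n* and 17.8% *Gnai1*. *Dazl*, a germ cell gene, was found in 5.96% of them. The shares of *Kit*-negative germ cells with *Pcsk1n* (6.79%) or *Gnai1* (16.0%) were below those of the Sertoli-like cells, and are read neither as expression nor as its absence, since *Gnai1* at least was found in several somatic classes. In *Kit*-positive cells the shares of the 7 genes were above the Sertoli-like ones.

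**Figure D2:**
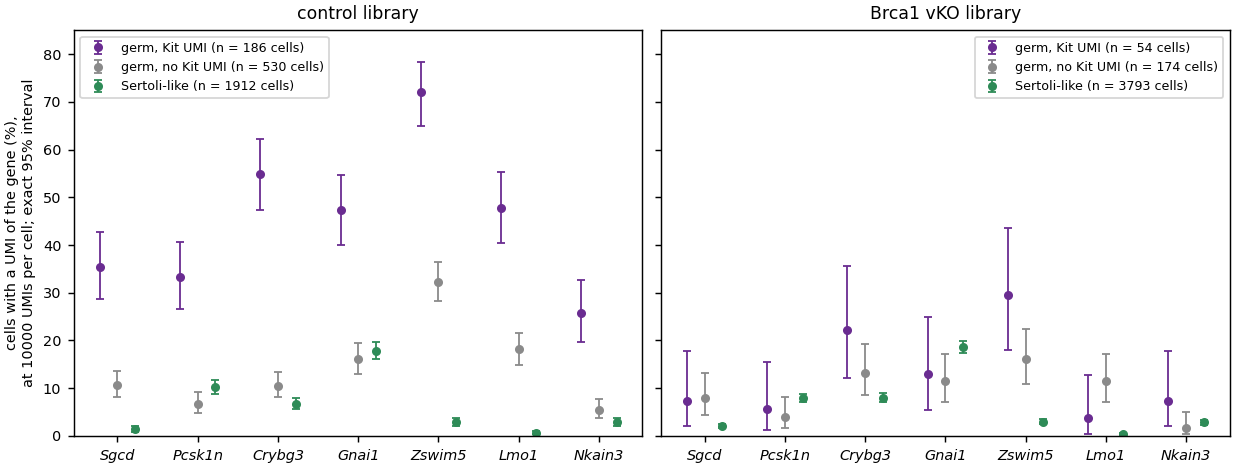
The plot gives the share of cells with a UMI of each gene after thinning to 10000 UMIs, for germ cells with and without a *Kit* UMI and for Sertoli-like cells, with exact 95% binomial intervals. In the control library the *Kit*-positive share lies above both others for each gene. In the *Brca1* vKO library the intervals of *Kit*-positive and *Kit*-negative germ cells overlap for each gene.

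Within the control KIT-type cells the 7 genes differed with the amount of *Kit*. Levels were compared among 31 cells without a *Kit* UMI, which had been classed by *Stra8* alone, 109 cells below and 109 cells at or above the median of the *Kit*-positive cells (1.43 UMIs per 10000). *Sgcd* was at 10.5 CPM (4.82 to 20.01), 53.2 (47.5 to 59.4) and 104 CPM (95.6 to 112) in these 3 groups. *Crybg3* was at 14.1, 52.8 and 120 CPM, *Nkain3* at 9.37, 25.2 and 62.3 CPM, and *Zswim5* at 48.0, 116 and 222 CPM. *Pcsk1n* (17.6, 32.2 and 53.8 CPM), *Gnai1* (25.8, 57.8 and 97.7 CPM) and *Lmo1* (35.1, 59.1 and 94.0 CPM) covered a smaller range.

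All 7 genes had their highest level in the cells with the most *Kit*, as did 41.9% of all genes compared, and since *Kit* is a gene of the rule this is a description. *Stra8* was at 341, 397 and 387 CPM in the same groups. *Gfra1* was at 53.9, 28.6 and 3.99 CPM, so the cells low in *Kit* also kept more *Gfra1*. The cells without *Kit* were shallower, with a median of 23430 UMIs against 51130 and 54793, which CPM takes into account for the level but not for the sorting of cells by *Kit*.

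**Figure D3:**
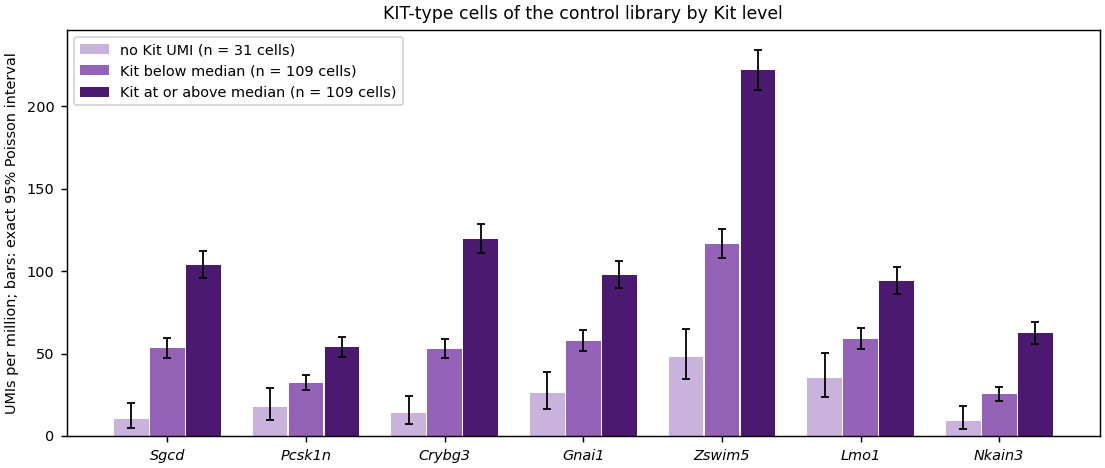
Bars give CPM, from 0, of each gene in control KIT-type cells with no *Kit* UMI, with *Kit* below the median and with *Kit* at or above it, with exact 95% Poisson intervals. Each gene is highest in the cells with the most *Kit*.

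*Kit* RNA was also found in GFRA1-type cells, and there none of the 7 genes was higher with *Kit* beyond its counting interval. Overlapping intervals do not show that levels are equal. The share of all genes with separate intervals in this split was not counted. Among control GFRA1-type cells, the 78 with a *Kit* UMI (29.2 CPM of *Kit*) and the 232 without had 46.3 and 42.9 CPM of *Zswim5*, 13.9 and 11.3 of *Crybg3*, 12.03 and 12.7 of *Gnai1*, 9.95 and 7.78 of *Lmo1*, 6.94 and 8.16 of *Sgcd*, 6.02 and 6.92 of *Nkain3* and 0.926 and 0.865 of *Pcsk1n*. In the *Brca1* vKO library 105 of 196 GFRA1-type cells held a *Kit* UMI, at 56.5 CPM of *Kit*. Their *Zswim5* was at 23.4 CPM against 21.1 without *Kit*, *Crybg3* at 18.4 against 20.8, *Gnai1* at 8.67 against 11.002, *Lmo1* at 7.15 against 4.46, *Pcsk1n* at 4.98 against 5.05 and *Nkain3* at 2.38 against 0.892, each pair with overlapping intervals. *Sgcd* was at 2.60 CPM with *Kit* (1.34 to 4.54) and 14.9 without (11.03 to 19.6), and a single GFRA1-type cell held 26 of the 62 *Sgcd* UMIs of this group.

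Levels in the germ cells low for both pairs lay between those of the other groups. In the 156 such control cells the levels ran from 7.44 CPM (*Pcsk1n*) to 56.6 CPM (*Zswim5*), and each of the 7 genes was higher than in GFRA1-type cells and lower than in KIT-type cells, as were 18.9% of all genes. *Lmo1* was the 1 gene of the 7 that was past 2-fold against GFRA1-type cells on the log2 scale (34.9 against 8.42 CPM, a ratio of 4.15, 3.32 to 5.20), as were 0.687% of all genes. The 10 CPM added on this scale hide differences between levels of a few CPM. *Pcsk1n*, at 7.44 CPM here, was at 0.926 and 0.865 CPM in GFRA1-type cells with and without a *Kit* UMI. KIT-type cells were past 2-fold against the cells low for both in 6 of the 7 genes, all but *Lmo1* (ratio 2.11, 1.82 to 2.45), as were 0.451% of all genes. Within these cells the 23 with a *Kit* UMI had more *Pcsk1n* than the 133 without (21.4 CPM, 14.1 to 31.1, against 4.13, 2.59 to 6.25), as well as more *Lmo1* (59.4 against 29.1 CPM), *Gnai1* (43.5 against 19.3), *Crybg3* (35.6 against 16.9) and *Zswim5* (80.7 against 50.9), each with separate intervals. For *Sgcd* (24.5 and 17.1 CPM) and *Nkain3* (15.04 and 12.02 CPM) the intervals overlapped. The share of all genes with separate intervals in this split was not counted, so these differences are a description. Of the progenitor genes listed for this work, *Sox3*, *Rarg* and *Upp1* were past 2-fold in these cells over GFRA1-type cells.

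Many barcodes with germ cell RNA were too shallow to be sorted by the rule. In the control library 372 barcodes met the *Ddx4* and *Dazl* minimum with fewer than 10000 UMIs (median 3198.5). They had 57.5 CPM of *Lmo1* (45.9 to 71.2) and 35.6 of *Pcsk1n* (26.6 to 46.7), with intervals that overlap those of KIT-type cells, along with 230 CPM of *Stra8*. *Kit* was at 27.4 CPM in these barcodes, against 144 in KIT-type and 8.55 in GFRA1-type cells. *Sgcd* was at 8.22 CPM (4.25 to 14.4), *Crybg3* at 10.96, *Nkain3* at 2.74 and *Zswim5* at 23.3 CPM, near or below GFRA1-type cells, and *Gnai1* was at 19.2 CPM.

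Set against KIT-type cells, this split went with the length of the 7 genes. Set against GFRA1-type cells it did not, since *Sgcd*, the longest, was near its level there and the shorter *Zswim5* was below. *Lmo1* (36.6 kb) and *Pcsk1n* (4.59 kb) are the shortest of the 7, and *Sgcd* (1092.7 kb) and *Nkain3* (660 kb) the longest, with *Gnai1* (95.2 kb), *Crybg3* (110.2 kb) and *Zswim5* (111.9 kb) between them. Genes that span at least 100 kb made up 5.06% of all UMIs in the shallow germ barcodes, against 12.4% in KIT-type, 13.8% in GFRA1-type and 15.4% in Sertoli-like cells. The part of this share in the low levels of the long genes was not tested. Over all genes, 6.52% of those spanning at least 500 kb (15 of 230) were past 2-fold in KIT-type over GFRA1-type cells. *Sgcd* and *Nkain3*, selected on this comparison, are among the 15. The share was 1.16% for genes of 100 to 500 kb, 0.455% for those of 10 to 100 kb and 0.694% for those under 10 kb. The median log2 difference of the longest genes was 0.02.

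The genes were next counted per cell. In control KIT-type cells the median was 5 of the 7 genes with a UMI, 60 of the 249 cells held all 7, and 7 cells held 0. GFRA1-type cells had a median of 2 genes, and 0 of 310 held all 7. At least 4 genes were found in 198 KIT-type cells (79.5%) and 42 GFRA1-type cells (13.5%). At 10000 UMIs per cell the medians were 3 and 1, and at least 4 genes were found in 105 KIT-type cells (42.2%) and 0 GFRA1-type cells, which limits the share with that many detected at this depth to 0.968%. The genes were selected for being low in GFRA1-type cells, so these counts are a description. The genes were not spread evenly: the 24 KIT-type cells with the most UMIs of a gene held 57.2% of its UMIs for *Nkain3*, 49.1% for *Sgcd* and 30.1% to 36.6% for the other 5.

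**Figure D4:**
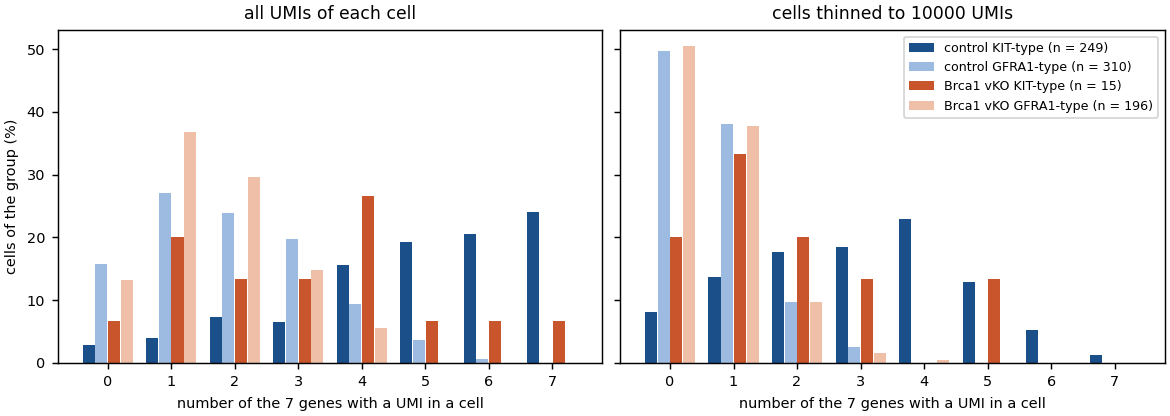
Bars give the percent of cells in a group with 0 to 7 of the genes detected, from all UMIs (left) and after thinning each cell to 10000 UMIs (right), for KIT-type and GFRA1-type cells of both libraries. Control KIT-type cells peak at 7 genes before and at 4 genes after thinning, and GFRA1-type cells at 0 or 1.

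Among the 249 control KIT-type cells, thinned counts of the genes were weakly related. *Sgcd*, *Crybg3*, *Zswim5* and *Nkain3* had Pearson correlations of 0.22 to 0.29 with each other, and *Pcsk1n* had 0.25 with *Lmo1* and 0.28 with *Gnai1*. *Lmo1* had −0.03 with *Zswim5* and −0.02 with *Nkain3*. The first 4 genes also had correlations of 0.33 to 0.44 with the cell's share of UMIs from genes of at least 100 kb, where *Lmo1* had −0.20 and *Pcsk1n* −0.08. Thinning did not remove the relation with the full depth of the cell (log), which was 0.16 to 0.32 for the first 4 genes and −0.07 to 0.02 for the others. Correlations with *Kit* were 0.19 to 0.37 for the first 4 and 0.12 to 0.14 for the others. All these cells come from 1 library, and in counts this sparse weak correlations are no finding.

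The relatives and partners of the 7 genes were listed by family. Of the sarcoglycans and dystrophin complex genes 0 of 13 compared were past 2-fold in either direction between control KIT-type and GFRA1-type cells, with *Sgcb* at 7.27 and 3.33 CPM and *Utrn* at 76.1 and 92.8 CPM. The prohormone processing genes gave 0 of 11, with *Pcsk1*, the convertase that proSAAS inhibits, at 1 UMI in each group. The beta-gamma crystallin domain genes gave 0 of 4, the SWIM zinc finger genes 0 of 7, and the NKAIN and sodium pump genes 0 of 9, with *Nkain1* at 34.4 and 18.5 CPM. Of the G alpha genes *Gna11*, which encodes a subunit that activates phospholipase C, was past 2-fold (148 against 55.1 CPM), 1 of 11, while the closest relatives of *Gnai1* were level or nearly so (*Gnai2* 170 and 167 CPM, *Gnai3* 112 and 96.5 CPM). Of the LIM-only genes and their partners 0 of 10 were higher and 1, *Lhx1*, was lower. The median log2 difference of these lists lay between −0.16 and 0.19, against 0.02 over all genes. Of all genes 0.688% were past 2-fold higher and 1.30% past 2-fold lower, so a count of 0 in lists this short is no result.

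Known genes of differentiation were compared in the same way. Of 14 listed genes 5 were past 2-fold higher in control KIT-type cells (*Kit*, *Stra8*, *Dnmt3b*, *Dmrtb1* and *Prss50*) and *Ccnd2* was lower. Over all genes 0.688% were past 2-fold higher. *Kit* and *Stra8* belong to the rule. *Dmrtb1*, a transcription factor of differentiating spermatogonia, was at 32.7 and 3.12 CPM, a ratio of 10.5 (7.70 to 14.5), in the range of *Sgcd* and *Lmo1*. Of 13 genes of undifferentiated spermatogonia 8 were past 2-fold lower, among them *Gfra1* and *Ret* of the rule, and 0 higher, where 1.30% of all genes were past 2-fold lower. Of 7 progenitor genes *Sox3* was higher and *Nanos3* lower.

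The genes with the profile most like that of each member were named over the 7 cell groups of the control library with at least 50 cells, by Pearson correlation of log2(CPM + 10) among 14502 genes. *Lmo1* was most like *Dusp2* (0.99), *Edf1* (0.99) and *Dmrtb1* (0.98), and *Zswim5* most like *Gm26907*, *9330102E08Rik* and *Cnksr2* (0.996 to 0.998). *Nkain3* was most like *Nipa1*, *Opcml* and *St8sia5* (0.98 to 0.99), *Crybg3* like *Ano1*, *Gm9530* and *Selplg* (0.96 to 0.99) and *Pcsk1n* like *Zfyve19*, *Vps36* and *Pfdn4* (0.97 each). *Sgcd* was most like *Pcyt2*, *Guf1* and *Adgrb3* (0.94 to 0.96) and *Gnai1* like *Mvp*, *Cand2* and *Ap4s1* (0.95 to 0.99). A high correlation over 7 points does not need a large difference: *Pcyt2* ran from 20.6 to 40.4 CPM and *Mvp* from 5.48 to 14.0 CPM. The correlation with *Kit* itself was 0.77 to 0.81 for *Pcsk1n*, *Crybg3*, *Zswim5*, *Lmo1* and *Nkain3*, 0.44 for *Sgcd* and 0.19 for *Gnai1*.

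Finally, the 7 genes were examined in the *Brca1* vKO library. Each had UMIs in its 122 *Kit*-positive germ cells, of which 105 were GFRA1-type. The share of all genes with a UMI in those cells was not counted, so this is no result about the 7 genes. In the 15 KIT-type cells *Zswim5* had 61 UMIs or 102 CPM (78.2 to 131), *Lmo1* 26 or 43.6 CPM (28.5 to 63.9), *Sgcd* 21 or 35.2 CPM (21.8 to 53.8), *Nkain3* 14 or 23.5 CPM (12.8 to 39.4), *Crybg3* 13 or 21.8 CPM (11.6 to 37.3), *Gnai1* 12 or 20.1 CPM (10.4 to 35.1) and *Pcsk1n* 8 or 13.4 CPM (5.79 to 26.4). For each of the 7 genes the interval of the ratio to the control KIT-type level lay below 1, as it did for 8.73% of all genes. The genes were selected for being high in KIT-type cells of these data, so lower values elsewhere are in part fixed by the choice.

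The ratio of the *Brca1* vKO to the control level in KIT-type cells was 0.269 for *Crybg3* (0.143 to 0.463), 0.272 for *Gnai1* (0.140 to 0.478) and 0.326 for *Pcsk1n* (0.140 to 0.647). These 3 genes were past 2-fold lower on the log2 scale, as were 1.40% of all genes. The other ratios were 0.479 for *Sgcd* (0.295 to 0.736), 0.570 for *Nkain3* (0.309 to 0.964), 0.593 for *Lmo1* (0.385 to 0.874) and 0.638 for *Zswim5* (0.486 to 0.823). The median log2 difference was −0.89, against −0.07 over all genes compared.

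These 15 cells differed from the control KIT-type cells in the genes of the rule as well. *Kit* was at 87.2 CPM against 144 (ratio 0.607, 0.451 to 0.799), *Stra8* at 305 against 389 (0.785, 0.674 to 0.911), and *Gfra1* at 148 against 19.01 (7.76, 6.01 to 9.95). Of the 14 listed genes of differentiation, *Dmrtb1* and *Prss50* were past 2-fold lower and *Ccnd2* past 2-fold higher. Of the 10 genes compared from the undifferentiated list, 5 were past 2-fold higher (*Gfra1*, *Id4*, *Etv5*, *Lhx1* and *Pax7*) and 0 lower. Over all 16122 genes compared, 225 were past 2-fold lower and 145 past 2-fold higher. Genes spanning at least 100 kb made up 10.8% of the UMIs of these 15 cells, against 12.4% in control KIT-type cells. The part of these differences in the levels of the 7 genes was not tested. A single cell (cell 4 in the plot of the 15 cells) held 50 of the 88 *Gfra1* UMIs.

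The *Brca1* vKO KIT-type cells were also set against the GFRA1-type cells of their own library. On the log2 scale with 10 CPM added, *Sgcd*, *Zswim5*, *Lmo1* and *Nkain3*, 4 of the 7, were past 2-fold higher, as were 0.764% of all genes. The ratios that follow have no CPM added. The ratio was 13.4 for *Nkain3* (5.91 to 30.3), 7.25 for *Lmo1* (4.31 to 11.9), 4.56 for *Zswim5* (3.35 to 6.13) and 4.53 for *Sgcd* (2.62 to 7.54). It was 2.68 for *Pcsk1n* (1.08 to 5.79) and 2.08 for *Gnai1* (1.03 to 3.85), and *Crybg3* was level at 1.12 (0.584 to 1.98). Part of this came from the GFRA1-type cells, where *Pcsk1n* was 5.68 times its control level (2.98 to 11.6; 5.01 against 0.882 CPM) and *Crybg3* 1.61 times (1.29 to 2.01), while *Zswim5* was 0.511 times (0.430 to 0.604) and *Nkain3* 0.264 times (0.139 to 0.464). The *Pcsk1n* level in *Brca1* vKO GFRA1-type cells was below that of the Sertoli-like cells of the same library (9.498 CPM).

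Cell by cell, the 15 *Brca1* vKO cells were unequal. One cell (54518 UMIs) held all 7 genes and 46 of the 155 UMIs of the 7 genes, among them 13 of the 21 *Sgcd* and 7 of the 14 *Nkain3* UMIs. A second cell (40995 UMIs) held 6 genes and 28 UMIs. The other 13 cells held 0 to 5 genes, the median over all 15 was 3, and 7 cells held at least 4. Without the 2 richest cells, a choice made after the data were seen, the log2 difference from GFRA1-type cells was 0.17 for *Sgcd* and −0.71 for *Crybg3*, against 1.52 for *Lmo1*, 1.40 for *Zswim5* and 1.03 for *Nkain3*.

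**Figure D5:**
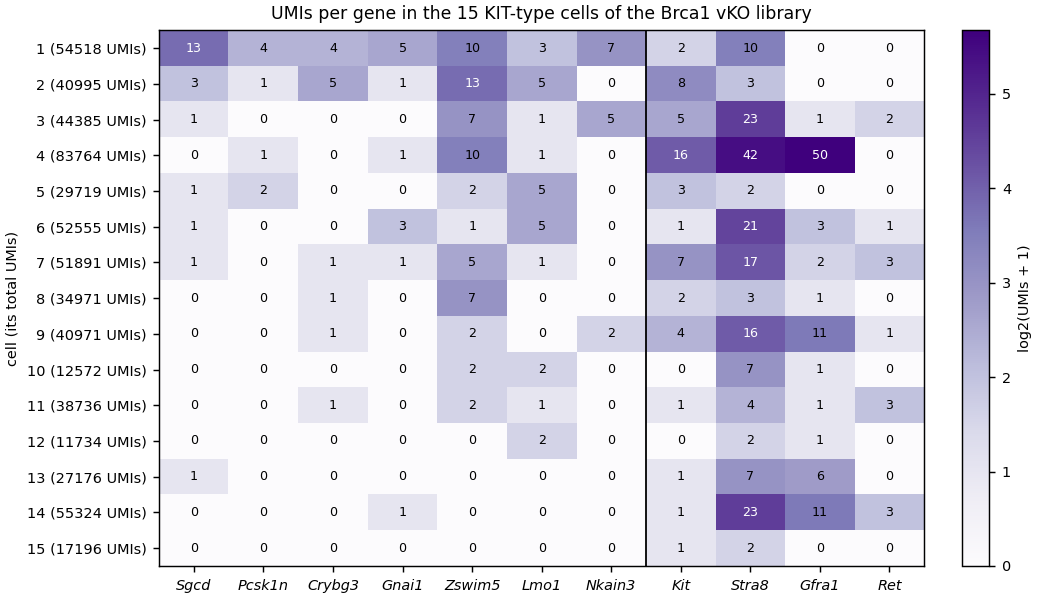
Each row is 1 of the 15 KIT-type cells of the *Brca1* vKO library, ordered by its UMIs of the 7 genes, and each column a gene. Numbers are UMIs and the shade is log2(UMIs + 1). The first 2 cells hold 74 of the 155 UMIs of the 7 genes, and *Zswim5* and *Lmo1* are the genes found in most cells (11 and 10).

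Over all *Brca1* vKO germ cells, each gene was found together with *Kit* after thinning. The shares with and without *Kit* had overlapping intervals, which does not show that they are equal. After thinning, 54 cells were *Kit*-positive and 174 *Kit*-negative. *Zswim5* was found in 29.6% (18.0 to 43.6) and 16.1% (10.97 to 22.4), *Crybg3* in 22.2% (12.04 to 35.6) and 13.2% (8.57 to 19.2), and *Nkain3* in 7.41% (2.06 to 17.9) and 1.72% (0.357 to 4.96). *Lmo1* was found in 3.70% (0.452 to 12.7) and 11.5% (7.16 to 17.2) and *Sgcd* in 7.41% and 8.05%. *Pcsk1n* (5.56% and 4.02%) and *Gnai1* (12.96% and 11.5%) were below the shares of the 3793 Sertoli-like cells of this library (7.86% and 18.7%; median 16816 UMIs against 36959.5 in its germ cells), and are not read as expression. The *Kit*-positive share was the larger in 5 of the 7 genes, as in 52.0% of all genes, and the 2 intervals overlapped for each gene. *Gfra1* was found in 85.2% of these *Kit*-positive cells, against 14.5% in the control library, so most *Kit*-positive germ cells of this library also carried *Gfra1* RNA. The *Kit*-negative germ cells of this library had nearly the same share, 82.2%. Without thinning, 122 germ cells held *Kit*, of which 105 were GFRA1-type and 13 KIT-type, and the shares with a UMI were 28.7% for *Lmo1* against 13.2% in the 106 cells without *Kit*, 54.1% against 34.9% for *Zswim5* and 13.9% against 15.1% for *Sgcd*.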

How the data were processed

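Reads had been aligned to mm10 by the authors, who used Cell Ranger 6.0.2 to count UMIs per gene and barcode. These deposited counts were neither filtered for cell quality nor normalized. Whether reads in introns were counted is not given in the sources used here. Following the study's methods, barcodes with fewer than 750 genes or over 10% mitochondrial UMIs were left out.

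Germ cells and their groups were formed by the rules given above. Somatic cells were classed by the mean scaled log level of 4 markers, with a score of at least 0.4, the next class at most 0.6 of it, and 3 markers detected. No doublets were removed except in an alternative (Scrublet in scanpy 1.11.5). UMIs were summed per library and group and divided by the sum of all UMIs. Log2 ratios used a pseudocount of 10 CPM over genes with 10 or more UMIs in the compared sums. Intervals at 95% were exact Poisson (sums), Clopper-Pearson (shares) and conditional (ratios), computed with scipy 1.17.1 under Python 3.11.15. The scripts were tested on simulated data. Gene positions are those of GENCODE vM21 and promoters those of RefSeq, both on GRCm38, the assembly of mm10.

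Genes named are the 7, those of the rule, fixed lists of relatives, partners and spermatogonial genes, and the 3 most similar genes per member. The genes and lists were chosen with earlier results of these data known. The alternatives changed the germ cell rule, depth, sorting genes, mitochondrial limit, doublets, weighting and pseudocount.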

Additional observations from a re-analysis of the deposited data

How the results depend on the processing

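No paired analysis was possible because each genotype had 1 library and no result came from a test. Of 18 alternatives, 2 were chosen after seeing the data. The control log2 difference between KIT-type and GFRA1-type cells (median of the 7 genes 2.04) was 2.40 with *Kit* against *Gfra1* alone, 2.65 with a pseudocount of 1 CPM and 1.08 with 50 CPM, where 4 of the 7 genes were past 2-fold. The percent of all genes past 2-fold was 1.11 with *Kit* against *Gfra1* alone, 1.18 with a mitochondrial limit of 5%, 4.50 and 0.105 with pseudocounts of 1 and 50 CPM, and 0.384 with no minimum of UMIs.

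The *Brca1* vKO values rest on 15 KIT-type cells, and on 5 with a mitochondrial limit of 5%. The median log2 difference between KIT-type and GFRA1-type cells in this library (1.35) was 0.57 with germ cells thinned to 10000 UMIs, 0.15 with that limit, 0.51 with 50 CPM and 0.17 without the 2 cells richest in the 7 genes. The difference from control KIT-type cells (−0.89) was −1.97 with the 5% limit and −1.68 without those 2 cells. Some single genes changed direction. *Crybg3*, KIT-type over GFRA1-type, was −0.68 with the 5% limit, −0.23 without its richest cell and −0.71 without those 2 cells. *Gnai1* was −0.17 after thinning and −1.32 with the 5% limit, and *Nkain3* −0.25 with the 5% limit. *Lmo1*, *Brca1* vKO over control, was 0.17 with the 5% limit. No other direction changed, and the counts of genes above each somatic class (4 to 5) and found more often with *Kit* (7 in the control library, 4 to 6 in the *Brca1* vKO library) moved by less than 1.5 times. Alternatives of the sorting pairs, weighting or pseudocount could not change the counts with *Kit*, which came from thinned cells split by *Kit* alone. A pseudocount could not change the somatic counts either.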
